A study of Rattus norvegicus with 8 samples.

Results

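Genes that set the skeletal muscle program were followed in H9c2 cells, a line of myoblasts from rat heart, after exposure to OxPAPC, a mixture of oxidized forms of a membrane phosphatidylcholine. The 9 genes were taken by symbol from the deposited count table of 40994 genes, and each symbol had 1 row: the myogenic regulatory factors Myog, Myod1, Myf5 and Myf6, the MEF2 factors Mef2a, Mef2c and Mef2d, the fusion gene Mymk and the repressor Msc. Of these, 6 passed the filter on low counts, as did 13206 genes in all. The 8 RNA-seq libraries were 4 from cells given 100 µg/ml OxPAPC for 6 h and 4 from cells given vehicle, with no genetic modification in either group and a single batch date. The sample labels give no exposure time for vehicle. Each library keeps its title number, so the vehicle libraries are 1, 8, 15 and 22 and the OxPAPC libraries 2, 9, 16 and 23. Cells were at passage 6 and were treated in wells of a plate. H9c2 is an established line, so all libraries come from cells of 1 origin, and nothing in the labels says that they were separate cultures; the p-values measure the spread between these libraries, some of which may be technical.

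The myogenic regulatory factors are basic helix-loop-helix (bHLH) proteins that bind E-boxes in muscle genes together with E proteins. MyoD (Myod1) and Myf5 commit cells to the skeletal muscle lineage, myogenin (Myog) drives their terminal differentiation, and Myf6 acts late. MEF2 proteins are MADS-box factors that cooperate with the bHLH factors and take part in activation of Myog, and class II histone deacetylases hold them inactive. Myomaker (Mymk) and myomixer (Mymx) are the muscle membrane proteins that fuse myoblasts into myotubes, and musculin (Msc) is a bHLH repressor of myogenic factors.

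Total counts were 15.4 to 21.7 M per library, and library pairs within a group differed less (chi-square per degree of freedom 2.23 to 9.5) than pairs across groups (23.1 to 35). The pairs farthest apart within a group held vehicle 1 with vehicle 15 and OxPAPC 2 with OxPAPC 23, so results are also given without vehicle 15 and OxPAPC 23 where that changes a call. Among 10 markers of myoblasts and satellite cells, M-cadherin (Cdh15, 194.3 CPM in vehicle) and Itga7 (249.9 CPM) were present while Pax7 had 2 counts over all libraries and Pax3 had 0; their summed level was 267.0 to 270.9 FPKM in vehicle and 238.6 to 243.0 FPKM in OxPAPC, and 3 of 8 tested markers fell. Of 12 cardiomyocyte markers 8 were too scarce to test, with Tbx5 and Tbx20 at 0 and Myh6 at 3 counts over all libraries. The 4 tested were Tnnt2 (127.8 CPM in vehicle), Gata4 (8.58), Pln (6.39) and Nkx2-5 (0.548). The summed level of all 12 was 91.5 to 104.8 FPKM in vehicle and 81.3 to 85.9 FPKM in OxPAPC. Of the 4 tested 2 fell, Tnnt2 and Pln, with log2 fold changes (OxPAPC over vehicle) of −0.18 and −2.25. Tnnt2 is also in the list of skeletal muscle differentiation genes below. Among markers of leukocytes Ptprc and Adgre1 were at 0, but Cd14 had 23.9 CPM in vehicle and 21.5 CPM in OxPAPC. The 7 leukocyte markers summed to 13.7 to 15.4 FPKM in vehicle and 12.5 to 13.5 FPKM in OxPAPC. Of 6 endothelial markers Cdh5 and Kdr were at 0, and their sum was at most 0.299 FPKM in vehicle and 0.323 FPKM in OxPAPC. The 4 genes of these lists that could be tested did not pass.

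MEF2 and bHLH factors can act on each other's genes, so the sequence 5′ of the genes was searched for their motifs. Whether these motifs had a part in the results was not tested. RefSeq windows of assembly GRCr8, 250 bases before to 50 bases after the start site, were found for 5 of the 9 genes, Myog, Myf5, Myf6, Mef2a and Mef2d. Those of Myog, the gene that moved most, and of Mef2a, a gene that did not pass the test, are shown. Capitals mark E-boxes (CANNTG, either strand) and the MEF2 motif, which was also searched without its last base, a looser form chosen after the windows had been read; overlapping matches of the 2 forms are marked once.
Myog, chr13:48297226-48297525, plus strand: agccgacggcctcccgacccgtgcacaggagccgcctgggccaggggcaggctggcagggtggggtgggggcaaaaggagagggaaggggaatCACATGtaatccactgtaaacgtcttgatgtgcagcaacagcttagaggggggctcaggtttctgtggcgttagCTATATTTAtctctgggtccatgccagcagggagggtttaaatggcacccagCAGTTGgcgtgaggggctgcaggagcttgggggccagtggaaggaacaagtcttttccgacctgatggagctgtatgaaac
Mef2a, chr1:130392113-130392412, minus strand: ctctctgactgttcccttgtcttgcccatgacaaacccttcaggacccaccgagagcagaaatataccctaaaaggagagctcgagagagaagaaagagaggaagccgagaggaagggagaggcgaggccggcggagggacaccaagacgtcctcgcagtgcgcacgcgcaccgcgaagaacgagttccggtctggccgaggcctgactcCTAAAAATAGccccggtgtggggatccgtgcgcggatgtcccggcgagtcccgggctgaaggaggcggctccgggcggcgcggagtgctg
The Myog window held E-boxes at −157 to −152 (CACATG) and −31 to −26 (CAGTTG), counted from the start site, and the shortened MEF2 motif at −83 to −75 (CTATATTTA). The Mef2a window held the full MEF2 motif at −40 to −31 (CTAAAAATAG) and 0 E-boxes. Of the windows not shown, that of Myf6 held the full MEF2 motif and 1 E-box. Those of Myf5 and Mef2d held no E-box and neither form of the MEF2 motif. Of 33469 windows, 72.1% held an E-box, 3.29% the full MEF2 motif and 8.31% its shortened form. These matches describe the letters only.

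Myogenin transcripts fell by 58.0% while those of MyoD, the other abundant myogenic factor, rose by 9.62%, a rise whose call depended on single libraries. Of the 6 tested genes, 3 fell (Myog, Mef2c, Mymk), 2 rose (Myod1, Mef2d) and Mef2a did not pass, in edgeR's quasi-likelihood test at an adjusted p under 0.05. Over all tested genes 34.3% passed, 17.9% as rises and 16.4% as falls, with a median log2 fold change of 0.00221 (OxPAPC over vehicle). Myog, Mef2c and Mef2d kept their calls in all 20 alternative analyses, and Mymk, like Myod1, did not. Levels per library are counts per M counts of the scaled library (CPM).

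**Figure D1:**
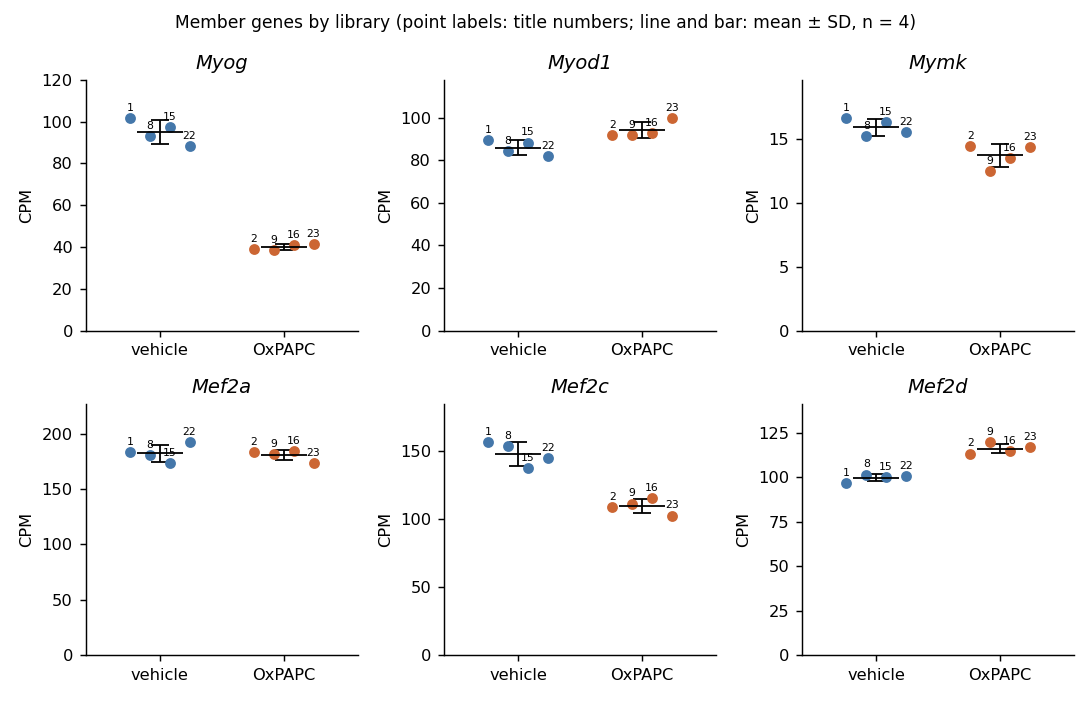
CPM of the 6 tested genes (y axis from 0) in the 4 vehicle and 4 OxPAPC libraries, each point labelled with its title number, with mean and SD. Myog separates most, at 88.4 to 101.7 against 38.5 to 41.5 CPM, and Mef2a overlaps between the groups.

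Myog (gene 29148, chromosome 13, 45745455 to 45748044, plus strand, in the coordinates of the deposited table, whose build is not named in the sources used here) had 101.7, 93.2, 97.2 and 88.4 CPM in vehicle 1, 8, 15 and 22. In OxPAPC 2, 9, 16 and 23 it had 39.0, 38.5, 40.9 and 41.5 CPM. Every OxPAPC library was below every vehicle library, with little spread among the treated ones. Mean levels were 95.1 ± 5.67 and 40.0 ± 1.46 CPM (SD, n = 4). The log2 fold change was −1.25 ± 0.05 (SE; edgeR adjusted p = 3.08e-15), with a 95% interval for the ratio of 0.393 to 0.449. Only 34 of the 13206 tested genes had a log2 fold change as low, and 32 of those passed the test. The change was −1.26 without vehicle 15 and OxPAPC 23. In bulk RNA, fewer cells that express Myog and less Myog RNA per cell cannot be told apart. Among markers of other cells, 5 of 6 of smooth muscle fell as well, with a summed level of 6074 to 6275 FPKM in vehicle and 4884 to 5150 FPKM in OxPAPC. Of 7 tested fibroblast markers 3 fell (list sum 15180 to 16410 FPKM in vehicle, 14340 to 15730 FPKM in OxPAPC). These are 83.3% and 42.9% of the tested markers, against 16.4% of all tested genes that fell. The part of these markers in the Myog result was not tested.

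Myod1 (gene 337868, chromosome 1, 96884864 to 96887574, plus strand) had 89.4, 84.1, 88.2 and 81.8 CPM in vehicle 1, 8, 15 and 22. It had 91.8, 91.8, 92.8 and 99.8 CPM in OxPAPC 2, 9, 16 and 23. The groups did not overlap, but the gap between vehicle 1 and the lowest OxPAPC library was small. OxPAPC 23 stood above the other treated libraries. The log2 fold change was 0.13 ± 0.04 (SE; edgeR adjusted p = 0.0168). The call was lost without vehicle 8 (edgeR adjusted p = 0.0537), without vehicle 22 (0.0737) or without OxPAPC 23 (0.064), nor with upper-quartile scaling (0.0916). Over the alternatives the adjusted p ran from 0.0138 to 0.15, and the fold change was above 0 in each.

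The other myogenic factors were close to undetected. Myf6 (gene 25714, chromosome 7, 42813008 to 42814852, minus strand) had 1, 14, 6 and 6 counts in vehicle 1, 8, 15 and 22 and 2, 1, 0 and 7 counts in OxPAPC 2, 9, 16 and 23. These overlapped, and the gene did not pass the filter; with no filter its log2 fold change was −1.32 ± 0.70 (SE; edgeR adjusted p = 0.204). Myf5 (gene 299766, chromosome 7, 42802946 to 42806177, minus strand), which lies beside Myf6, had 1 count in vehicle 15 and 0 counts in the other libraries. A count of 0 over the OxPAPC libraries allows up to 0.0428 CPM (3 counts over the group), a limit that covers counting error only. The repressor Msc (gene 312897, chromosome 5, 4547335 to 4553206, plus strand) had 1 count in vehicle 22 and 1 in OxPAPC 23. No change of Myf5 or Msc was detectable at this depth.

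Of the 3 MEF2 genes that were tested, Mef2c fell, Mef2d rose and Mef2a did not pass. Mef2c (gene 499497, chromosome 2, 13973299 to 14136065, plus strand) had 156.4, 153.4, 137.2 and 144.9 CPM in vehicle 1, 8, 15 and 22. It had 108.7, 111.4, 115.3 and 102.5 CPM in OxPAPC 2, 9, 16 and 23. All treated libraries lay below all vehicle libraries, and the mean fell from 148.0 ± 8.68 to 109.5 ± 5.4 CPM (SD, n = 4). The log2 fold change was −0.44 ± 0.04 (SE; edgeR adjusted p = 8.36e-08), and the level fell by 26.1%. A long noncoding RNA on the opposite strand overlaps Mef2c but had 7 counts over all libraries, against 18516 of Mef2c.

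Mef2d (gene 81518, chromosome 2, 173606054 to 173635620, plus strand) had 97.0, 101.6, 100.4 and 100.9 CPM in vehicle 1, 8, 15 and 22. In OxPAPC 2, 9, 16 and 23 it had 113.4, 119.8, 114.9 and 117.1 CPM. Treated libraries were all above vehicle ones. Mean levels were 99.96 ± 2.06 and 116.3 ± 2.78 CPM (SD, n = 4). The log2 fold change was 0.22 ± 0.04 (SE; edgeR adjusted p = 4.61e-05), a rise by 16.4%.

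Mef2a (gene 309957, chromosome 1, 120847874 to 120982488, minus strand) had 183.1, 180.3, 173.5 and 192.1 CPM in vehicle 1, 8, 15 and 22. It had 183.2, 181.3, 184.3 and 173.5 CPM in OxPAPC 2, 9, 16 and 23. The groups overlapped, at 173.5 to 192.1 CPM in vehicle and 173.5 to 184.3 CPM in OxPAPC. The log2 fold change was −0.01 ± 0.04 (SE; edgeR adjusted p = 0.807), and its 95% interval spanned ratios of 0.944 to 1.04. The fourth family member, Mef2b, was scarce, with 0, 3, 2 and 0 counts in vehicle 1, 8, 15 and 22 and 1, 1, 10 and 4 counts in OxPAPC 2, 9, 16 and 23. Its groups overlapped, and with no filter its log2 fold change was 1.69 ± 0.92 (SE; edgeR adjusted p = 0.223). MEF2 genes resemble each other within the MADS box, so some reads may have been shared between them.

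**Figure D2:**
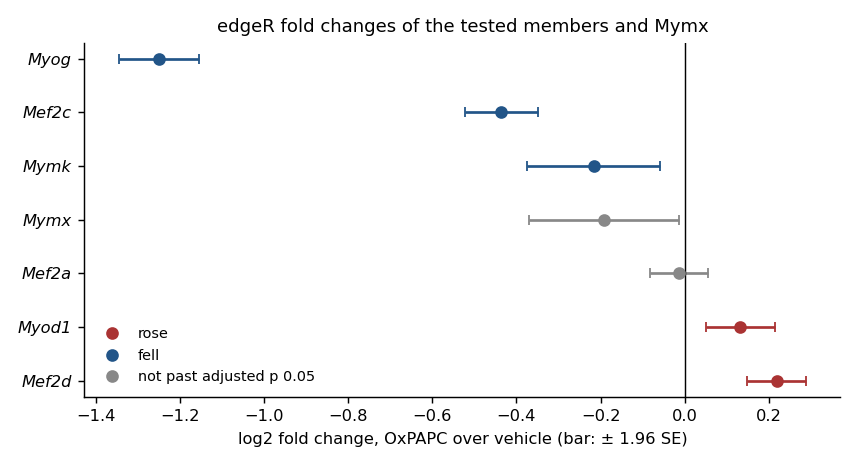
Log2 fold changes (x axis, OxPAPC over vehicle) of the 6 tested genes and of Mymx, with bars of the 95% interval. Myog at −1.25 lies farthest from 0, Mef2c follows at −0.44, and Mef2a and Mymx did not pass the test.

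Of the fusion pair, myomaker fell slightly and myomixer did not pass. Mymk (gene 296601, chromosome 3, 10388361 to 10397364, minus strand) had 16.6, 15.2, 16.3 and 15.5 CPM in vehicle 1, 8, 15 and 22. It had 14.5, 12.5, 13.5 and 14.4 CPM in OxPAPC 2, 9, 16 and 23, all below the vehicle libraries. With 213 to 328 counts per library, its log2 fold change was −0.22 ± 0.08 (SE; edgeR adjusted p = 0.0417). The call was lost without vehicle 1 (edgeR adjusted p = 0.102), vehicle 15 (0.0777), vehicle 22 (0.0611), OxPAPC 9 (0.14) or OxPAPC 16 (0.0848), without vehicle 15 and OxPAPC 23 together (0.0606) and with DESeq2 (0.07), over a range of 0.00937 to 0.14. Mymx had 14.2, 17.7, 17.5 and 15.7 CPM in vehicle 1, 8, 15 and 22 and 16.3, 13.4, 13.2 and 14.3 CPM in OxPAPC 2, 9, 16 and 23. These groups overlapped, and its log2 fold change was −0.19 ± 0.09 (SE; edgeR adjusted p = 0.112).

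Per length of transcript, the order of the genes differed between the groups. In vehicle, deposited FPKM levels ran from Myog (61.9 to 70.9) through Myod1 (42.6 to 46.3), Mef2a (26.8 to 29.6), Mef2c (19.4 to 21.9) and Mef2d (15.01 to 15.75) to Mymk (9.47 to 10.4). Neighbours in that order did not overlap over the 4 libraries. In OxPAPC, Myod1 came first (46.5 to 51.1 FPKM), the ranges of Myog (26.4 to 28.6) and Mef2a (26.3 to 27.9) overlapped, and Mef2d (17.2 to 18.3) lay above Mef2c (14.2 to 15.9). Myf6, Msc and Myf5 were last in both groups, each at most at 0.515 FPKM in any library. Myog made up 59.7 ± 0.572% of the summed FPKM of the 4 myogenic factors in vehicle and 36.3 ± 0.646% in OxPAPC (SD, n = 4). That sum was 111.4 ± 5.56 in vehicle and 75.5 ± 3.19 FPKM in OxPAPC (SD, n = 4). For Mef2a, Mef2c and Mef2d together the sum was 64.3 ± 1.75 in vehicle and 60.1 ± 1.35 FPKM in OxPAPC (SD, n = 4), while the share of Mef2c was 32.3 ± 1.32% against 25.1 ± 0.685% and that of Mef2d 24.2 ± 0.927% against 29.5 ± 0.972%.

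**Figure D3:**
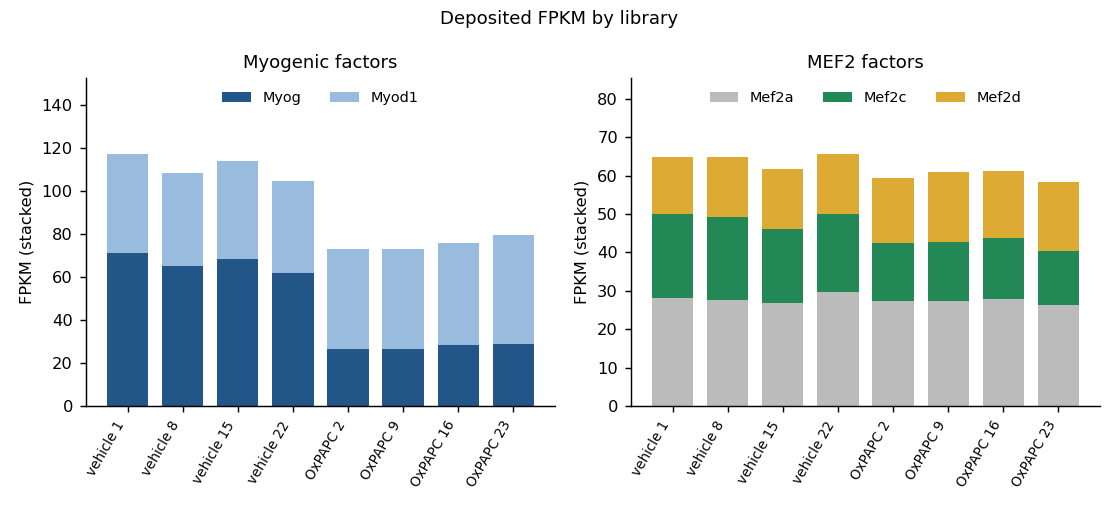
Deposited FPKM (stacked, y axis from 0) of Myog and Myod1 (left) and of Mef2a, Mef2c and Mef2d (right) in each library. The Myog part is 61.9 to 70.9 FPKM in vehicle and 26.4 to 28.6 FPKM in OxPAPC, and within the MEF2 bars the Mef2c part is 19.4 to 21.9 FPKM in vehicle and 14.2 to 15.9 FPKM in OxPAPC.

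Ratios within a library do not depend on the scaling of libraries, and they were compared for all 15 pairs of the 6 tested genes by an exact two-sided permutation test, whose smallest p is 0.0286 for 4 against 4. For Myog over Myod1 the log2 ratio of counts averaged 0.15 ± 0.03 over vehicle libraries and −1.24 ± 0.04 over OxPAPC libraries (SD, n = 4), a difference of −1.38 (exact permutation p = 0.0286, adjusted over the pairs 0.039). Myog also fell relative to Mef2c, by 0.82 on the log2 scale, with the same exact p. The ratio of Mef2c to Mef2d went from 0.56 ± 0.10 to −0.09 ± 0.08 (SD, n = 4; difference −0.65, exact permutation p = 0.0286, adjusted 0.039). Mef2a differed in its response from Mef2c (difference 0.42) and from Mef2d (−0.23), each with exact permutation p = 0.0286 and adjusted p = 0.039. Pairs that did not pass were Myod1 with Mef2a (0.14, exact permutation p = 0.114), Myod1 with Mef2d (−0.09, exact p = 0.143), Mef2a with Mymk (0.20, exact p = 0.0571) and Mef2c with Mymk (−0.22, exact p = 0.0857). The other pairs, 11 of 15, had groups that did not overlap and an adjusted p of 0.039. Any pair with groups apart gets the smallest exact p, whatever the size of its difference. The adjusted value therefore depends on how many pairs reach that p, and it does not rank the pairs. All 15 pairs come from the same 6 genes, so they partly restate the calls of the single genes. Pairs of other genes were not compared, and 34.3% of all tested genes passed on their own.

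**Figure D4:**
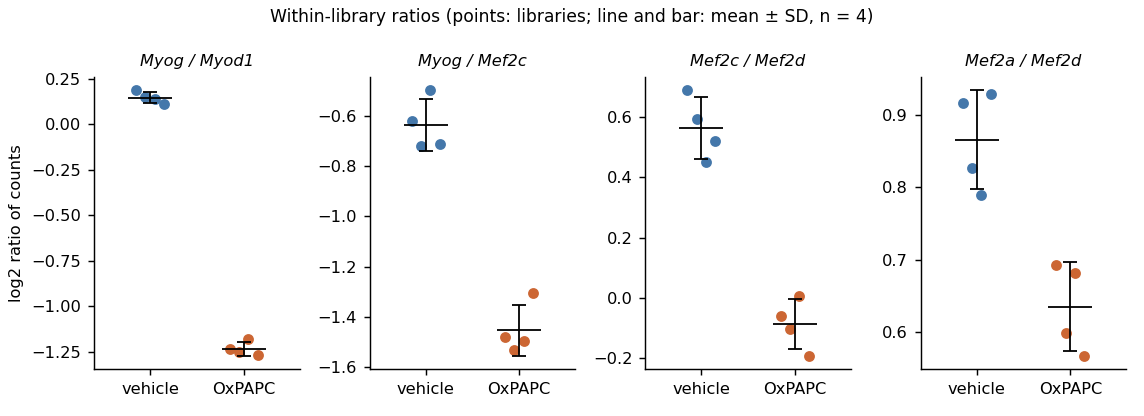
Log2 ratios of counts of 4 gene pairs in each library, with mean and SD; each panel has its own y scale. Vehicle and OxPAPC libraries are apart in every panel, most for Myog over Myod1, at 0.15 against −1.24.

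Other genes of the pathway were taken as 6 lists, drawn up with earlier results of these data known, so their shares are descriptions and were not tested against all genes. Among partners and inhibitors of the myogenic bHLH factors, of 21 listed genes 19 were tested, and 1 rose, 3 fell and 15 did not pass, or 21.1% called against 34.3% of all tested genes, with a median log2 fold change of −0.000911. Tcf3, which encodes the E proteins that pair with MyoD and myogenin, fell by 0.19 on the log2 scale (−0.19 ± 0.04, edgeR adjusted p = 0.000848), and the E protein gene Tcf12 was at 0.01 ± 0.03 (SE; edgeR adjusted p = 0.793). The inhibitor Id4 fell (−0.48 ± 0.07 SE, edgeR adjusted p = 3.17e-05). Id1, Id2 and Id3, which also hold E proteins away from myogenic factors, did not pass, with 0.12, 0.04 and 0.05. The number of rises was 3 without vehicle 15, where 4 genes fell, and 2 without OxPAPC 2 or OxPAPC 16. Twist1, an inhibitor of MyoD in mouse, went from 42.7 ± 3.24 to 54.4 ± 2.32 CPM (SD, n = 4; 0.35 ± 0.06 SE, edgeR adjusted p = 3.1e-05), and the repressor Zeb1 fell (−0.29 ± 0.06 SE, edgeR adjusted p = 0.00146).

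Upstream factors of the lineage changed in both directions. Of 29 listed genes 18 were tested, and 5 rose, 6 fell and 7 did not pass. That is 61.1% called against 34.3% of all tested genes, with a median log2 fold change of 0.04. The homeodomain factor Six4 (0.33 ± 0.05 SE, edgeR adjusted p = 3.04e-05), which activates myogenic factor genes in mouse, rose, as did the cofactor Meis1 (0.34 ± 0.05). The coactivator Eya1 (−0.27 ± 0.05) and the corepressor Dach1 (−0.53 ± 0.08) fell. The hedgehog effector Gli2 (−0.54 ± 0.07), Tead4 (−0.43 ± 0.06) and Msx1 (−0.43 ± 0.11) fell too. Six4 overlaps Mnat1 on the opposite strand, a gene with 63.8% as many counts that did not pass (0.01, edgeR adjusted p = 0.937), so its value is uncertain.

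MEF2 co-regulators and kinases showed 4 rises and 7 falls among 24 tested of 27 listed genes, and 13 did not pass. That is 45.8% called against 34.3% of all tested genes, with a median log2 fold change of −0.02. The class II deacetylases Hdac4, Hdac5, Hdac7 and Hdac9, which repress MEF2, did not pass, with 0.24, −0.02, 0.09 and −0.20. The calcium-dependent kinase Camk2d (0.26 ± 0.03 SE, edgeR adjusted p = 1.99e-06) and the calcineurin subunit Ppp3ca (0.21 ± 0.04), both upstream of MEF2 activity, rose, as did the coactivator Ncoa2 (0.19 ± 0.06), though not without vehicle 15, vehicle 22, OxPAPC 2 or OxPAPC 16 (edgeR adjusted p = 0.0535, 0.0766, 0.0763 and 0.0594). Falls numbered 4 without vehicle 8 and 3 with limma on log2(FPKM + 1) and no filter. The SRF coactivators were split, with Mrtfa up (0.22 ± 0.03) and Mrtfb down (−0.43 ± 0.09). Vgll4 (−0.33 ± 0.04), whose span holds part of Atg7, and the deacetylase kinase Sik1 (−0.27 ± 0.07) fell. The MEF2 kinase Mapk7 fell by 0.16 with an edgeR adjusted p of 0.0487, and lost the call in 10 of 20 alternatives, among them every one that left out 1 library except OxPAPC 23 (0.055 to 0.178).

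The list of fusion machinery, Mymx among its 36 genes, had 28 tested, of which 7 rose, 4 fell and 17 did not pass. That is 39.3% called, near the 34.3% of all tested genes, with a median log2 fold change of 0.03. Rises numbered 4 with limma on log2(FPKM + 1) and no filter. Caveolin-3 (Cav3), a muscle caveolar protein, fell from 26.3 ± 1.5 to 16.4 ± 0.725 CPM (SD, n = 4; −0.69 ± 0.07 SE, edgeR adjusted p = 5.19e-08). The caveolar ATPase Ehd2 (−0.34 ± 0.03) and the adhesion molecule Ncam1 (−0.23 ± 0.04) fell as well. The adhesion molecule Jam3 (0.39 ± 0.05), the interleukin-4 receptor Il4r (0.42 ± 0.07), the integrin Itga3 (0.17 ± 0.04) and the small GTPase Arf6 (0.19 ± 0.04) rose. M-cadherin (Cdh15) did not pass, at −0.06 ± 0.04 (SE; edgeR adjusted p = 0.203). Xkr8, a partner in exposure of phosphatidylserine, rose by 0.43 ± 0.14 but overlaps Smpdl3b on the same strand. It did not pass without vehicle 22, OxPAPC 2 or OxPAPC 23 (edgeR adjusted p = 0.0588, 0.0667 and 0.0727), nor without vehicle 15 and OxPAPC 23 together (0.0986).

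Genes of skeletal muscle differentiation fell more often than they rose. Of 49 listed genes 46 were tested, and 4 rose, 17 fell and 25 did not pass. That is 45.7% called against 34.3% of all tested genes, with a median log2 fold change of −0.14 against 0.00221. The thin-filament nucleator Lmod3 fell from 49.0 ± 1.67 to 30.6 ± 1.82 CPM (SD, n = 4; −0.68 ± 0.05 SE, edgeR adjusted p = 1.24e-09). The myosin heavy chain Myh1 (−0.56 ± 0.09), Mybph (−0.58 ± 0.10) and cardiac and slow troponin C (Tnnc1, −0.30 ± 0.05) fell also. Reads of Myh1 may be shared with the similar myosin genes beside it, and Mybph overlaps Adora1 on the opposite strand. Myh4 was scarce and fell by 0.62, but not without vehicle 1, vehicle 22, OxPAPC 2 or OxPAPC 23 (edgeR adjusted p = 0.0809, 0.0641, 0.0716 and 0.0742). Against this direction, the kinase of the neuromuscular junction Musk rose from 53.0 ± 1.70 to 101.1 ± 6.97 CPM (SD, n = 4; 0.93 ± 0.05 SE, edgeR adjusted p = 4.91e-13), with 50.9 to 54.6 CPM in vehicle and 93.4 to 110.4 CPM in OxPAPC. The cell cycle inhibitor Cdkn1a (0.25 ± 0.03) and Mustn1 (0.35 ± 0.08) rose. Muscle creatine kinase (Ckm) and the acetylcholine receptor subunit Chrna1, both activated by myogenic factors in mouse, did not pass, at 0.01 ± 0.09 and 0.02 ± 0.06 (SE; edgeR adjusted p = 0.959 and 0.857).

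Of 16 genes with known MEF2 sites, some of which belong to the lists above, 13 were tested, and 2 rose, 3 fell and 8 did not pass. That is 38.5% called, near the 34.3% of all tested genes, with a median log2 fold change of −0.17. Klf2, activated by MEF2 in endothelium, fell from 72.8 ± 4.11 to 44.8 ± 2.98 CPM (SD, n = 4; −0.70 ± 0.05 SE, edgeR adjusted p = 6.1e-10). The glucose transporter Slc2a4 (−0.40 ± 0.08) and the sarcomere protein Myom1 (−0.25 ± 0.06) fell, while Jun (0.18 ± 0.04) and Nr4a1 (0.21 ± 0.07) rose. Nr4a1 did not pass without vehicle 22 or OxPAPC 2 (edgeR adjusted p = 0.064 and 0.0982). The number of falls in this list depended on scaling and filter, with 7 under upper-quartile factors, 6 under library totals or with no filter on counts and 5 with limma on log2(FPKM + 1) or log2(FPKM + 0.1), and was also 5 without vehicle 15, vehicle 22 or OxPAPC 16. Rises numbered 1 without vehicle 22 or OxPAPC 2, under upper-quartile factors and in the 3 FPKM analyses.

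**Figure D5:**
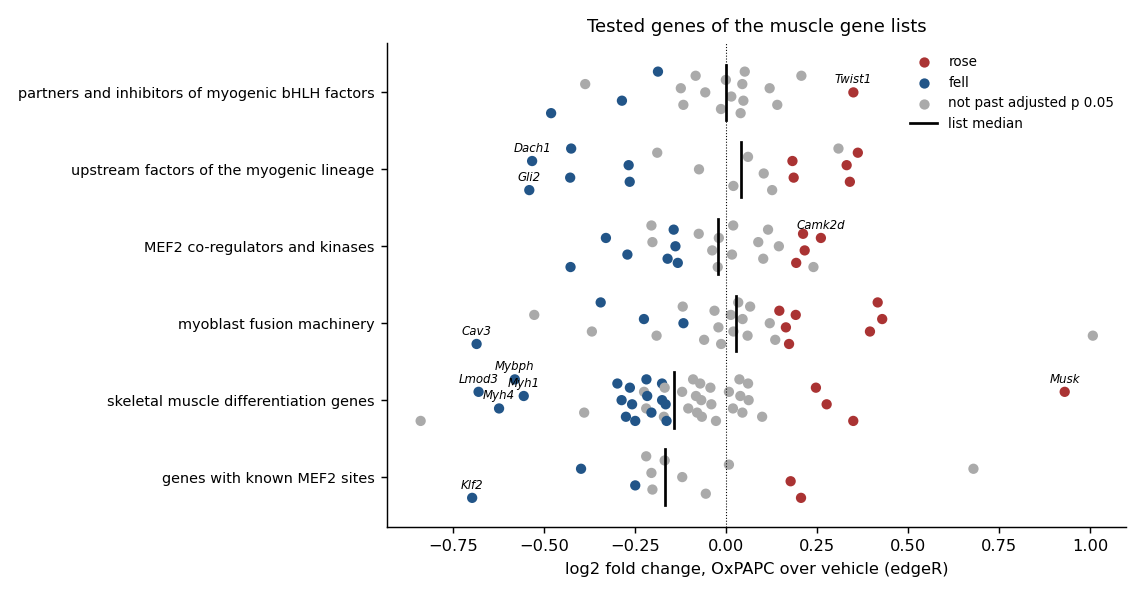
Log2 fold changes (x axis, OxPAPC over vehicle) of the tested genes of the 6 lists, coloured by call, with a bar at each list's median. The differentiation list lies mostly below 0, with a median of −0.14, and Musk is at 0.93 in that list; heights within a list only separate the points.

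The genes with profiles closest to those of the strongest falling and rising members were named by the Euclidean distance of centred log2 CPM over the 8 libraries. For Myog they were Paqr8 (distance 0.255, log2 fold change −1.16), Adamts9 (0.347, −1.36), Tmem25 (0.372, −1.44), Timeless (0.401, −1.03) and Hells (0.405, −1.01). For Mef2d they were Ppp3ca (0.0517), Tmem41a (0.0546), Zbtb11 (0.0732), Tspan4 (0.0757) and Arhgap10 (0.0796), with log2 fold changes of 0.21 to 0.24; Zbtb11, Tspan4 and Arhgap10 overlap other genes on the opposite strand, and the one at Arhgap10, a locus with 7.02% as many counts, itself rose (0.55, edgeR adjusted p = 0.0216). Such closeness mostly reflects a fold change of like size between the same 2 groups.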

How the data were processed

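The authors deposited raw read counts per gene, whole numbers, and FPKM values for the same libraries. The submitters' processing notes name featureCounts 1.5.0-p3, HISAT2 2.0.5 and StringTie 1.3.3b without a role. Per the labels' protocols libraries were directional and non-directional, so use of strand in counting is unknown and genes overlapping on opposite strands may share reads. No source used here names the genome build; chromosome numbers came from a RefSeq table of GRCr8 by gene identifier (91.9% matched), and promoter windows from RefSeq on GRCr8. In each file 1 line had been emptied. Lack of molecular identifiers means that limits cover counting error only.

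Fold changes on the log2(FPKM + pseudocount) scale understate those of low genes. Counts were tested in edgeR 4.0.16 (R 4.3.3) with filterByExpr (at least 10 counts at the median library size in 4 libraries, 15 in total), TMM scaling and the robust quasi-likelihood F test, with Benjamini-Hochberg adjustment over all 13206 tested genes and a threshold of 0.05. The code was run on simulated counts, drawn from the fitted edgeR model with few genes changed. That run checks the code and does not test the scaling or the model on these data. SE was taken as |log2 fold change|/√F, and 95% intervals are normal ones from it. Ratios between pairs of genes were tested by exact two-sided permutation over the 70 assignments of 4 of 8 libraries. Alternatives used RLE, upper-quartile or no scaling, other filters, DESeq2 1.42.0, limma 3.58.1 (voom, or on log2(FPKM + 1) and log2(FPKM + 0.1)), each library left out, and a block by consecutive title numbers. Leaving out vehicle 15 and OxPAPC 23 together was added after the data had been seen. Deviations of consecutive libraries correlated by −0.0011 to 0.21 over 4 pairs, and not every pair passed 0.1. Other pairs of a vehicle and an OxPAPC library ran from −0.239 to 0.189. These values cannot decide whether cultures were paired, and the labels do not say so. Libraries were left unpaired in the main test, and only the block alternative used pairs.

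The members and gene lists were chosen with earlier results of these data known. Named from each list were the 4 tested genes with the smallest p and up to 4 more called genes with the largest change; further genes named from a list (Tcf12, Id1 to Id3, the deacetylases, Cdh15, Ckm, Chrna1) were chosen after their values were seen, for their known roles. Members were named whatever their values. A gene that the rule selects from the list of upstream factors is not reported here.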

Additional observations from a re-analysis of the deposited data

Results flagged for a closer look

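Among the 6 tested genes in the 2 groups, 1 of 12 sets of 4 libraries held a library far from the rest. Myod1 in OxPAPC 23 had 99.8 CPM, and its gap to the next library was 0.865 of the range of the 4 OxPAPC libraries and above Dixon's 95% critical value for 4 samples. Chance gives such a gap in about 1 of 20 sets. Without that library the log2 fold change of Myod1 was 0.102 and did not pass (edgeR adjusted p = 0.064).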

How the results depend on the processing

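Myog (−1.29 to −1.22), Mef2c (−0.473 to −0.404) and Mef2d (0.18 to 0.231) kept direction and call in all 20 alternatives. Myod1 did not pass with upper-quartile factors (0.0951) or with limma on log2(FPKM + 1) (0.102), log2(FPKM + 0.1) (0.104) and log2(FPKM + 1) with no filter (0.102), which leaves 1 rising member of 6 there; with 1 library left out its log2 fold change was 0.102 to 0.152 and 1 to 2 members rose. Mymk did not pass with DESeq2 (−0.219) or without vehicle 15 and OxPAPC 23 together (−0.233), and ran from −0.242 to −0.173 with 1 library left out; 2 to 3 members fell in each alternative. Mef2a, never past the test, changed sign with 1 library left out (−0.0389 to 0.0127; 0.0127 without vehicle 22 and 0.00557 without OxPAPC 23). Ratios were compared in 9 other settings, with 0.5 added to each count or with 1 library left out. The ratio of Myod1 to Mef2a passed without vehicle 15 (0.181, range 0.0957 to 0.181), and the other 14 ratios kept their call. The cause was not tested. With vehicle 15 and OxPAPC 23 both left out, too few libraries remain for any ratio to pass the exact test. Over all genes 3373 to 4664 passed, and rises numbered 1488 with log2(FPKM + 1) and no filter against 2369; rises were 52.3% of calls with TMM, 40.2% with upper-quartile factors and 43.2% with log2(FPKM + 1), although the median of all genes moved only to −0.0353 at most. With the replicate block of consecutive numbers 4664 genes passed, and no call of a member changed. Calls of Sik1, Arf6, Xkr8 and Myh4 were also lost with log2(FPKM + 1) and no filter, and those of Nr4a1 and Ncoa2 in the 3 FPKM analyses. For the 42 genes named from lists by the rule, 805 values over the alternatives kept the call and 35 lost it; of the 12 counts of rises or falls per list, 220 values stayed within 1.5 times and 20 did not. Depth limits Myf5, Myf6, Msc and Mef2b, with 1 to 37 counts each over 8 libraries.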
